A study of Mus musculus with 2 samples.

Results

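The replication-dependent histone genes of the mouse were taken as every gene whose symbol in the deposited feature lists begins with Hist1h, Hist2h, Hist3h or Hist4h, which gave 67 of 31053 genes. They comprised 6 genes for linker histone H1, 18 for H2A, 18 for H2B, 12 for H3 and 13 for H4. Their transcripts were counted in mammary cells labelled luminal, from FVB/NJ mice aged 3.5 months, on a Chromium 3′ v3.1 single-cell kit. The C3-TAg library came from Sox9-GFP;C3-TAg mice and the WT library from Sox9-GFP mice, so both carried the Sox9-GFP allele and the transgene was the difference between them. C3-TAg places simian virus T antigen, a protein that binds Rb and p53, under a promoter of the rat prostatic steroid binding protein gene. Each genotype was 1 library with no replicate check on any difference between them, and how many mice were pooled was not stated in the labels. Intervals below are exact 95% intervals that cover counting error only, and no p-value was computed.

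A nucleosome wraps DNA around an octamer of the core histones H2A, H2B, H3 and H4, and H1 binds the linker DNA between nucleosomes. Cells make most of this protein in S phase from clustered genes without introns, whose mRNAs are unusual in ending at a short stem-loop in place of a poly(A) tail. The stem-loop is bound by SLBP and the mRNA is cut just past it with the help of U7 snRNP, and at the end of S phase the mRNA is degraded. Some of these genes also give a longer transcript that ends in poly(A), which in differentiated or non-dividing cells can replace the short form. A kit that primes on poly(A) captures the stem-loop form poorly, so the counts below describe the primed molecules and not total histone mRNA.

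Of the 67 members, 54 lie on chromosome 13, 10 on chromosome 3, 2 on chromosome 11 and 1 on chromosome 6 in GRCm38. The GENCODE M21 transcripts of 44 members hold a histone stem-loop, found as a 16-base pattern with a stem of 6 base pairs around a loop of 4 bases. The stem-loops of the members followed below are shown because they mark where the short histone mRNA would end. They are written in DNA letters, with the stem in capitals and the loop in lower case.

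Hist1h2ap and 25 others, Hist1h1c, Hist1h1d, Hist1h1e and Hist1h2ae among them: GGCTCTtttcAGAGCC
Hist1h3c, Hist1h3e and 4 others: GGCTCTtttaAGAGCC
Hist1h4d, Hist1h4h and 5 others: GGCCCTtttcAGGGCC
Hist1h4i and Hist2h4: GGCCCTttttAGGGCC

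What differed more than these letters was how far the annotated transcript ran on. The Hist1h2ap transcript (chr13:21833026-21833507, minus strand) ended 3 bases past the stem-loop. That of Hist1h3c (chr13:23744973-23745602, minus strand) ended 74 bases past it and that of Hist1h2ae (chr13:23570517-23571220, minus strand) 151 bases past it. By contrast the transcript of Hist1h1c (chr13:23738808-23740367, plus strand) ran 840 bases past it, that of Hist1h4i (chr13:22040636-22041362, minus strand) 330 bases and that of Hist2h4 (chr3:96261682-96263311, minus strand) 1257 bases. The annotated coding transcript of Hist1h2bc (chr13:23684199-23692908, plus strand) has 2 exons and 1156 bases and does not contain the pattern. Hist1h1b (chr13:21779883-21780625, minus strand) is annotated with 743 bases of 1 exon that also lack it, and 23 members in all had no stem-loop in an annotated transcript.

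Promoter windows of 250 bases before to 50 bases after the gene start were found in the RefSeq table (GRCm38.p6) for 61 of the 67 members. Windows of 5 members that the results turn on are printed 5′ to 3′ on the gene's strand, with matches in capitals to the octamer ATTTGCAT, to CCAAT, to TATAAA and to the E2F motifs TTTCGCGC and TTTGGCGC, each searched on both strands. The first 2 stand for members that were high with the mitotic sum, and those of Hist1h1c and Hist1h4i for members that were highest in hormone-sensing cells. The Hist1h2ac window is shown because it holds the annotated start of Hist1h2bc, which is transcribed the other way. Its label, start shared with Hist1h2bc, refers to the window only. The annotated starts differ, at 23683948 for Hist1h2ac and 23684199 for Hist1h2bc.

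Hist1h1b (chr13:21780576-21780875, minus strand): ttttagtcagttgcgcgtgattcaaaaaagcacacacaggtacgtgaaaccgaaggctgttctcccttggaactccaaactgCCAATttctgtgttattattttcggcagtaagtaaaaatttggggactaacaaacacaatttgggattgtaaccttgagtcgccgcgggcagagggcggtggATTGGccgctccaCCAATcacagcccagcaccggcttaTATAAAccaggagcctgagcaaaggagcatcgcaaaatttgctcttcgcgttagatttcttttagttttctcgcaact
Hist1h2ae (chr13:23571171-23571470, minus strand): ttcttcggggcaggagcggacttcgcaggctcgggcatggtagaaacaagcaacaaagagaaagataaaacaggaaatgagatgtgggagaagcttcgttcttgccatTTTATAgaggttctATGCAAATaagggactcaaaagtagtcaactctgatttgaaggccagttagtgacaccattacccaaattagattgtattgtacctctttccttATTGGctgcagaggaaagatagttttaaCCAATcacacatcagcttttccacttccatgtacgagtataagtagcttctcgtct
Hist1h1c (chr13:23738557-23738856, plus strand): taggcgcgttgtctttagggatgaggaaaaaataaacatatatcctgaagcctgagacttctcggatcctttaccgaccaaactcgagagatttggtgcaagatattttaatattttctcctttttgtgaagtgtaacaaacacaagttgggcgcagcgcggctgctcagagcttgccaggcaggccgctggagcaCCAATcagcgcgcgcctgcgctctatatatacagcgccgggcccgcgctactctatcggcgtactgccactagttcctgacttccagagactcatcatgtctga
Hist1h2ac, start shared with Hist1h2bc (chr13:23683910-23684209, minus strand): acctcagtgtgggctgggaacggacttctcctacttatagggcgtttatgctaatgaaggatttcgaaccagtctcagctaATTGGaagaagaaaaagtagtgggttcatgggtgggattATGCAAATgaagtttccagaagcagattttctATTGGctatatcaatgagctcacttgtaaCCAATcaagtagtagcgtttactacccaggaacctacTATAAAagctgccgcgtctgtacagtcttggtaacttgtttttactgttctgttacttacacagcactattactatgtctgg
Hist1h4i (chr13:22041313-22041612, minus strand): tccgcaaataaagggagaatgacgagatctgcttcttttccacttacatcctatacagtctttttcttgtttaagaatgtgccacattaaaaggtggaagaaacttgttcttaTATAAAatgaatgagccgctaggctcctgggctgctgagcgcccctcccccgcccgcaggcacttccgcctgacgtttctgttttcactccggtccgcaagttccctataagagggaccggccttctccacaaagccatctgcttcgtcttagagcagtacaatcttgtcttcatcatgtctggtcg

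The octamer, which is bound by Oct-1 (Pou2f1) in H2B promoters, was present in 21.3% of the 61 member windows, against 1.74% of all 32851 windows. It was found in 7 of 18 H2A windows and in 6 of 16 H2B windows, and in 0 of 5 H1, 0 of 10 H3 and 0 of 12 H4 windows. CCAAT was present in 85.2% of member windows, against 37.4% of all windows. It was in every H1, H2A, H2B and H3 window but in only 3 of 12 H4 windows. TATAAA was present in 55.7% of member windows, against 13.6%. An E2F motif was present in 14.8% of member windows, against 0.813%, and only in windows of H2A (5 of 18) and H2B genes (4 of 16). Matches of different motifs overlapped in 0 member windows. Because 20 of the 61 windows share bases with the window of another member, these shares do not count independent sequences. Windows of both behaviours described below hold CCAAT or TATAAA, and a match is a match of letters and not a shown binding site.

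After filtering and removal of doublets, 7828 C3-TAg cells with a median of 8652 UMIs and 7046 WT cells with a median of 10296 UMIs were kept. Of the kept barcodes, 17 occurred in both libraries. Cells were called hormone-sensing when Areg, Pgr, Esr1 and Cited1 together reached 5 UMIs per 10000. The other cells were split at 0.5% of UMIs from the caseins Csn1s1, Csn1s2a, Csn2 and Csn3, and at 5 UMIs per 10000 of the mitotic genes Mki67, Top2a, Cdk1 and Ccnb1. The luminal markers Epcam, Krt8, Krt18 and Krt19 all had UMIs and summed to 12316 CPM in C3-TAg and 17274 CPM in WT, where CPM is UMI counts of a gene scaled to 1000000 UMIs of a class of cells. The 6 basal markers summed to 368 CPM in C3-TAg, nearly all of it Krt14 at 363 CPM, and to 37.0 CPM in WT. There were 2012 C3-TAg and 2720 WT hormone-sensing cells. Casein-high mitotic-low cells numbered 1892 in C3-TAg and 3748 in WT, and casein-low mitotic-low cells 1778 in C3-TAg and 574 in WT. Mitotic-high cells numbered 573 casein-high and 1573 casein-low in C3-TAg, whereas WT had 2 of each, so their levels can be compared within C3-TAg only. These classes are ranges of a sum and not cell types: 522 C3-TAg cells (6.67%) lay between 4 and 6 mitotic UMIs per 10000, and 259 (3.31%) lay as near to the hormone-sensing limit.

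The hormone-sensing class was not uniform in C3-TAg. Of its 2012 cells, 235 were also in the mitotic range. In these the median receptor sum was 7.64 UMIs per 10000, against 41.1 in the other 1777. Prlr, the prolactin receptor, which the rule did not use, stood at 98.3 CPM in the 235 cells, against 1780 CPM in the other 1777. Krt14, a basal keratin, stood at 389 CPM in the 235 cells, against 53.6 CPM in the others. WT had 1 such cell. Hormone-sensing values are therefore given with these cells and without them.

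In the kept cells the members held 53891 UMIs in C3-TAg and 31163 in WT. At least 20 UMIs over both libraries were found for 55 members, 9 had between 1 and 18, and Hist1h2bq, Hist1h4m and Hist1h2aa had none. A few members carried most of the signal. The 4 with the most UMIs held between 69.8% (H3) and 96.4% (H1) of the UMIs of their class, and these 20 members are followed by name below. Paralogs of a class are near-identical in their coding sequence and no source used here gives the rule for reads that fit several genes, so the split of counts among close copies is uncertain. The same holds for Hist1h2be, whose annotated span overlaps Hist1h1e on the same strand.

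**Figure D1:**
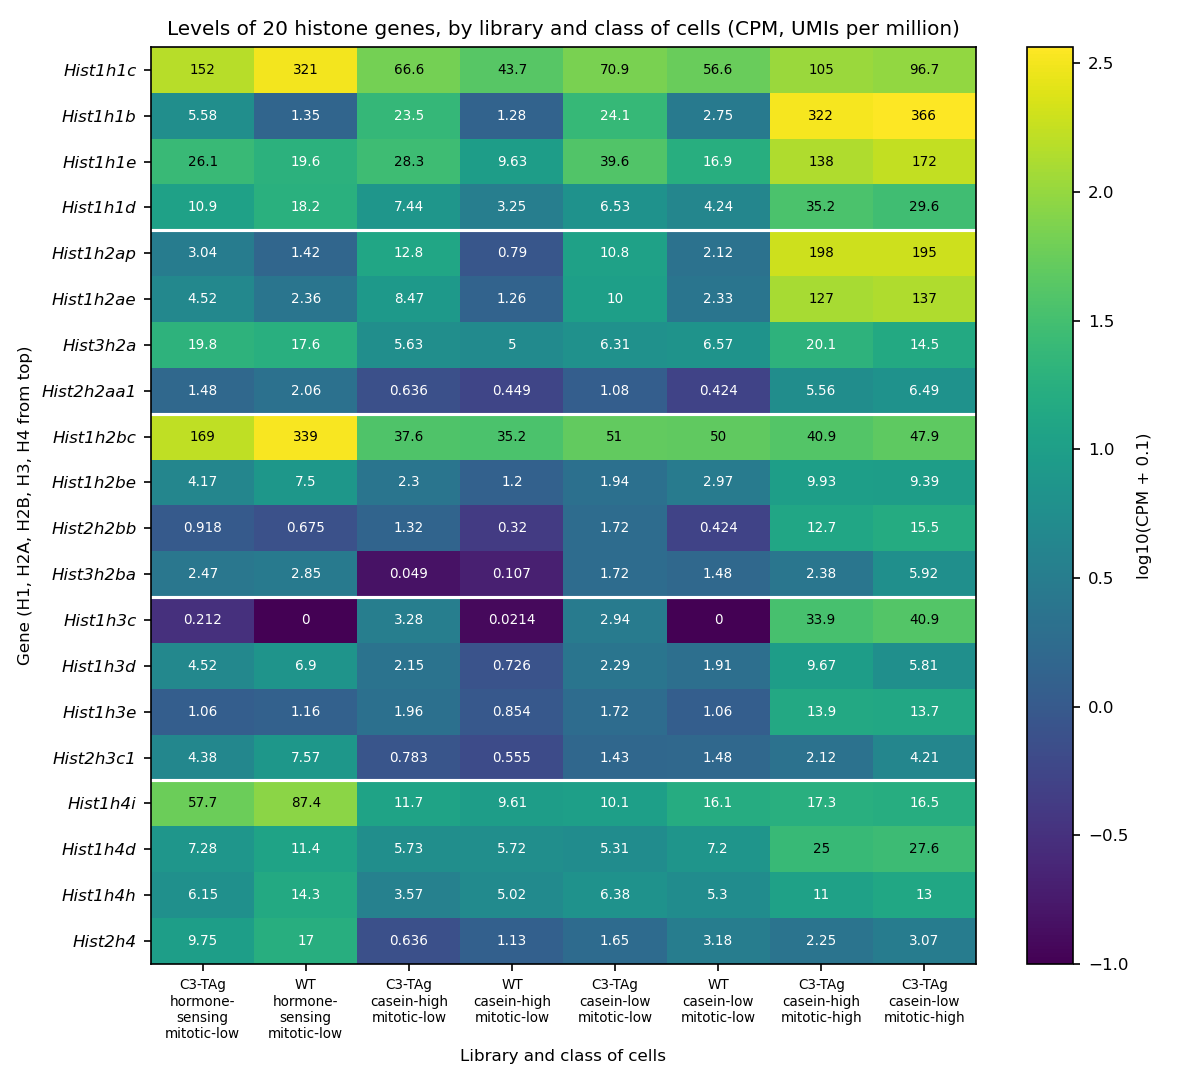
Levels of the 20 histone genes with the most UMIs in their class, in CPM, with C3-TAg left of WT for each class of cells (1 library each) and colour on a log scale. Hist1h1b stands at 322 and 366 CPM in the mitotic-high columns at the right, and Hist1h2bc at 169 CPM in C3-TAg and 339 CPM in WT hormone-sensing mitotic-low cells at the left.

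Summed over all members, histone transcripts were most abundant in mitotic-high C3-TAg cells, next in hormone-sensing cells and lowest in WT cells of neither kind. The sums were 1275 CPM in casein-high and 1379 CPM in casein-low mitotic-high C3-TAg cells. In mitotic-low cells that were not hormone-sensing they were 260 CPM (254 to 265) in C3-TAg, against 137 CPM (134 to 140) in WT. Hormone-sensing cells held 663 CPM (650 to 675) in C3-TAg, against 900 CPM (888 to 911) in WT. Without the cells in the mitotic range the C3-TAg value was 505 CPM (493 to 517), against 898 CPM (887 to 909) in WT.

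The make-up of the signal also differed between these classes. In casein-low mitotic-high C3-TAg cells, H2A genes gave 28.2% and H2B genes 8.0% of all member UMIs. In WT hormone-sensing cells, H2A genes gave 3.0% and H2B genes 39.5%. Hist1h1b alone, a linker histone gene, gave 26.5% of member UMIs in casein-low mitotic-high C3-TAg cells and 0.2% in WT hormone-sensing cells. Hist1h2bc, an H2B gene, gave 3.5% in casein-low mitotic-high C3-TAg cells and 37.7% in WT hormone-sensing cells. These are shares of primed transcripts and not of histone protein.

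**Figure D2:**
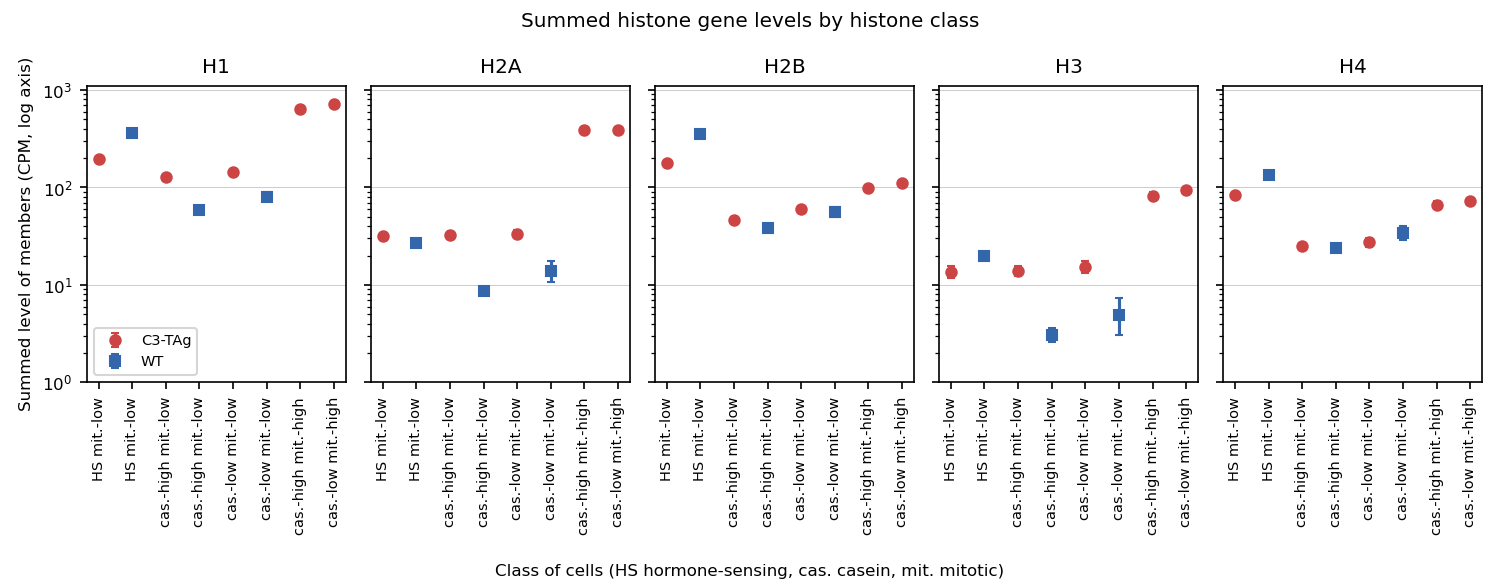
Summed level of all members of each histone class in CPM (log axis), by class of cells, with C3-TAg as circles and WT as squares and exact 95% Poisson intervals (1 library each). H2A stands near 389 CPM in both mitotic-high classes and at or under 33.1 CPM in the other C3-TAg classes shown, whereas H2B is highest in WT hormone-sensing mitotic-low cells at 355 CPM.

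Mitotic-high C3-TAg cells had more transcript of nearly every member that could be measured than mitotic-low C3-TAg cells of the same casein range. A member counted as higher or lower from a 1.5-fold ratio, among genes with at least 20 UMIs over both groups. In casein-low cells 48 of 52 measured members were higher and 0 lower, against 11.2% higher and 5.71% lower among all 12499 genes measured. In casein-high cells 38 of 40 were higher and 0 lower, against 12.7% higher and 3.79% lower of 11790 genes. Many members reached the limit of 20 UMIs only with the mitotic-high cells added, which favours a higher ratio. Among those with 20 UMIs in the casein-low mitotic-low cells by themselves, 19 of 22 were higher and 0 lower. Of genes under the same limit, 8.89% were higher and 5.06% lower. In the casein-high range 21 of 23 such members were higher and 0 lower, against 11.5% and 3.57% of genes.

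Of the linker histone genes, Hist1h1b and Hist1h1a had the widest ratios. Hist1h1b stood at 366 CPM in casein-low mitotic-high cells, against 24.1 CPM in casein-low mitotic-low cells, a 15.2-fold ratio (log2 3.93, 3.77 to 4.09). In casein-high cells it was 322 CPM in mitotic-high, against 23.5 CPM in mitotic-low cells. Hist1h1a, which is expressed mainly in dividing cells, was 15.7-fold higher in casein-low mitotic-high cells, at 49.6 CPM against 3.16 CPM in mitotic-low cells, and 16.5-fold higher in casein-high ones, at 38.8 CPM against 2.35 CPM. Hist1h1e was 4.35-fold higher in the casein-low range, at 172 CPM in mitotic-high and 39.6 CPM in mitotic-low cells. Hist1h1d was 4.53-fold higher there, at 29.6 CPM in mitotic-high and 6.53 CPM in mitotic-low cells. Hist1h1c, the H1 gene with the most UMIs, differed less. It was at 96.7 CPM in casein-low mitotic-high cells, against 70.9 CPM in mitotic-low cells, and at 105 CPM in casein-high mitotic-high cells, against 66.6 CPM in mitotic-low cells.

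H2A as a class had the widest ratio between mitotic-high and mitotic-low cells, 11.7-fold in casein-low (389 against 33.1 CPM) and 12.0-fold in casein-high cells (389 against 32.3 CPM). Hist1h2ap was 18.0-fold higher, at 195 CPM in casein-low mitotic-high cells, against 10.8 CPM in mitotic-low cells. Hist1h2ae was 13.6-fold higher, at 137 CPM in mitotic-high, against 10.0 CPM in mitotic-low cells. Both encode canonical H2A, whereas Hist3h2a, from the small cluster on chromosome 11, had a ratio of 2.30 (14.5 CPM in mitotic-high, 6.31 CPM in mitotic-low cells). Hist2h2aa1, on chromosome 3, was 6.04-fold higher, at 6.49 CPM in mitotic-high, against 1.08 CPM in mitotic-low cells. Members with few UMIs gave the extreme ratios with wide intervals. Hist1h2ab had 86 UMIs in mitotic-high and 2 in mitotic-low casein-low cells, a 34.1-fold ratio (log2 5.09, 3.20 to 8.16), and Hist1h2an had 78 and 12 UMIs in the casein-high range, a 17.6-fold ratio.

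The H2B sum, in contrast, was 1.84-fold higher in casein-low mitotic-high cells (111 against 60.0 CPM in mitotic-low cells). Hist1h2bc made most of it and was level, at 47.9 CPM in mitotic-high, against 51.0 CPM in mitotic-low cells (log2 ratio -0.09, -0.24 to 0.06). In casein-high cells it was at 40.9 CPM in mitotic-high, against 37.6 CPM in mitotic-low cells (log2 ratio 0.12, -0.07 to 0.31). Nearly all other measured H2B genes were higher with the mitotic sum. Hist2h2bb was 9.03-fold higher in casein-low mitotic-high cells (15.5 against 1.72 CPM). Hist1h2be was 4.85-fold higher (9.39 against 1.94 CPM) and Hist3h2ba 3.44-fold (5.92 against 1.72 CPM). Hist1h2bh had 41 UMIs in mitotic-high and 1 in mitotic-low casein-low cells, a 32.6-fold ratio (log2 5.03, 2.47 to 10.36), and Hist1h2bn 50 and 2 UMIs, a 19.8-fold ratio (log2 4.31, 2.38 to 7.40). Hist2h2be was level, with 15 UMIs in mitotic-high and 12 in mitotic-low cells.

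Among the H3 genes, Hist1h3c was 13.9-fold higher in casein-low mitotic-high cells (40.9 CPM, against 2.94 CPM in mitotic-low cells) and 10.3-fold higher in casein-high ones (33.9 against 3.28 CPM). Hist1h3e was 7.97-fold higher in the casein-low range (13.7 against 1.72 CPM), Hist1h3d 2.53-fold (5.81 against 2.29 CPM) and Hist2h3c1 2.94-fold (4.21 against 1.43 CPM). The H4 sum was 2.64-fold higher in casein-low mitotic-high cells (72.1 against 27.2 CPM), less than H2A or H3. Hist1h4d led it at 5.19-fold (27.6 CPM in mitotic-high, 5.31 CPM in mitotic-low cells), whereas Hist1h4i, the H4 gene with the most UMIs, had a ratio of 1.63 (16.5 CPM in mitotic-high, 10.1 CPM in mitotic-low cells). Hist1h4h was 2.03-fold and Hist2h4 1.86-fold higher. In the casein-high range the 2 members short of 1.5-fold were Hist1h2bc and Hist1h4i, and Hist2h3c2 had the next lowest ratio at 1.55 (8 and 14 UMIs). In the casein-low range the 4 were Hist1h2bc, Hist1h1c, Hist2h2be and Hist2h3c2.

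The levels were also read along the mitotic sum in steps. C3-TAg cells that were not hormone-sensing were put in 6 bins, from 1569 cells without a UMI of the mitotic genes to 203 cells with 20 or more per 10000. In order of the bins, Hist1h1b stood at 7.79, 19.2, 44.8, 222, 467 and 534 CPM. Hist1h2ap stood at 2.54, 6.85, 26.6, 129, 263 and 248 CPM, and Hist1h3c at 0.636, 2.48, 6.40, 24.9, 50.3 and 61.3 CPM. The median depth of the bins, 7496 to 10925 UMIs, changed far less than these levels. Hist1h2bc stood at 45.8, 48.0, 35.8, 41.4, 53.0 and 35.2 CPM with no steady course, and Hist1h1c at 78.6, 65.2, 60.0, 77.9, 116 and 138 CPM.

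**Figure D3:**
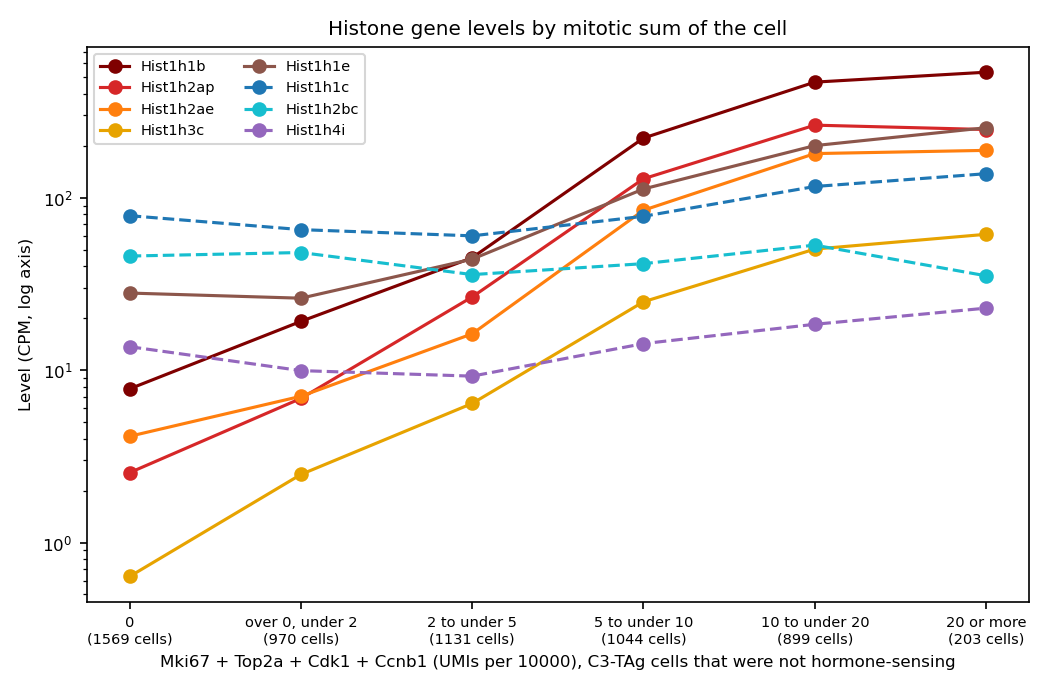
Level (CPM, log axis) of 8 histone genes in C3-TAg cells that were not hormone-sensing, binned by the sum of Mki67, Top2a, Cdk1 and Ccnb1 (UMIs per 10000; cells per bin under each label; 1 library). Solid lines (Hist1h1b, Hist1h2ap, Hist1h2ae, Hist1h3c, Hist1h1e) end far above their first bin, Hist1h1b at 534 CPM, while the dashed lines run between 35.2 and 53.0 CPM for Hist1h2bc, between 60.0 and 138 CPM for Hist1h1c and between 9.22 and 22.9 CPM for Hist1h4i.

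The casein range had little bearing on these levels in mitotic-high cells. Between casein-low and casein-high mitotic-high C3-TAg cells, 8 of 52 measured members were higher and 2 lower, against 25.5% higher and 9.41% lower of all genes measured. Among the 32 with 20 UMIs in the casein-high cells by themselves, 0 were higher and 2 lower, against 19.4% and 9.45% of genes under the same limit. With TMM scaling, which moves all log2 ratios of this comparison by 0.23, the split was 7 higher and 7 lower, and the small excess of the summed level in casein-low cells (log2 0.11) changed sign. The highest ratios belonged to Hist1h3f (6.15 CPM in casein-low, 2.38 CPM in casein-high cells), Hist3h2ba (5.92 against 2.38 CPM) and Hist2h3c2 (2.56 against 1.06 CPM). Hist1h2bj (3.07 against 5.03 CPM) and Hist1h3d (5.81 against 9.67 CPM) were the 2 lower members. Hist1h3g and Hist1h2bp, each with 23 and 14 UMIs, had the next lowest ratio. Hist1h2ap was nearly equal, at 195 CPM in casein-low and 198 CPM in casein-high cells.

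Cells rich in S-phase transcripts but below the mitotic limit gave a different picture. Among mitotic-low C3-TAg cells outside the hormone-sensing class, 1620 were S-high, with at least 5 UMIs per 10000 of Rrm2, Tyms, Cdc6, Cdc45, Gins2, Clspn, Mcm3 and Mcm5, and 2050 were S-low. In S-high over S-low cells 12 of 35 measured members were higher and 5 lower, against 11.6% and 5.02% of all genes measured. Among the 23 with 20 UMIs in the S-low cells by themselves, 4 were higher and 4 lower, against 9.64% and 4.44% of genes under the same limit. With TMM scaling the split was 9 higher and 9 lower. The summed level was 245 CPM in S-high and 272 CPM in S-low cells. All of the 20 DNA replication genes of the comparison list were higher in the same contrast, with a median log2 ratio of 1.24, which is a description only, since genes of DNA replication chose the S-high cells.

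By name, Hist1h2ap was 2.02-fold higher (16.6 CPM in S-high, 8.22 CPM in S-low cells) and Hist1h1b 1.58-fold (29.7 against 18.9 CPM). The highest ratios were in sparse members, Hist1h2af (14 and 6 UMIs), Hist1h2an (15 and 8 UMIs) and Hist3h2ba (16 and 9 UMIs). Hist1h2bc was 1.80-fold lower (29.9 CPM in S-high, 53.8 CPM in S-low cells), Hist1h4i 1.60-fold lower (8.31 against 13.3 CPM) and Hist1h2br 3.11-fold lower (6 and 23 UMIs). Hist1h3f and Hist1h4j completed the 5 lower members. Restricted to cells without a UMI of the mitotic genes, 443 S-high and 1126 S-low cells, 1 of 14 measured members was higher (Hist1h3a) and 1 lower (Hist1h2be), against 16.1% and 7.29% of all genes measured there. Both are named after their values were seen.

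Levels of replication genes and of histone genes can be set side by side, as a description of groups that were chosen by such genes. S-high mitotic-low cells held 1912 CPM of the DNA replication list, close to the 1984 CPM of all mitotic-high cells outside the hormone-sensing class. Hist1h1b, Hist1h2ap and Hist1h2ae together stood at 57.0 CPM in S-high mitotic-low cells and at 683 CPM in those mitotic-high cells. Relative to the replication list this is 0.030 and 0.344. Of those 2146 mitotic-high cells, 1631 were also S-high and held 763 CPM of these 3 genes, with 2259 CPM of the replication list. The 515 mitotic-high cells that were S-low held 425 CPM of these 3 genes, with 1099 CPM of the replication list.

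In WT, where almost no cell was in the mitotic range, histone transcripts were concentrated in hormone-sensing cells. Of 29 members measured in hormone-sensing over other mitotic-low WT cells, 25 were higher and 0 lower, against 37.6% higher and 21.0% lower of all genes measured. Of these, 8 reached the limit of 20 UMIs only with the hormone-sensing cells added, which favours a higher ratio. Among the other 21, with 20 UMIs in the other cells by themselves, 17 were higher and 0 lower, against 33.9% and 22.3% of genes under the same limit. The summed level was 900 CPM in hormone-sensing, against 137 CPM in other cells, a 6.57-fold ratio. The sums of all 5 histone classes were higher, from 2.98-fold for H2A to 8.95-fold for H2B. TMM scaling moves these log2 ratios by 0.30, less than any of the class ratios.

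Hist1h1c stood at 321 CPM in WT hormone-sensing, against 44.9 CPM in other mitotic-low WT cells (7.16-fold; log2 2.84, 2.77 to 2.91). Hist1h1d was 5.44-fold higher, at 18.2 against 3.34 CPM. Hist1h1e was 1.92-fold higher, at 19.8 against 10.3 CPM, and Hist1h1b, at 2.02 against 1.42 CPM, had a ratio of 1.43. Among H2A genes Hist3h2a was 3.42-fold higher (17.6 against 5.14 CPM) and Hist2h2aa1 4.62-fold (2.06 against 0.446 CPM). Hist1h2ap (1.65 against 0.912 CPM) and Hist1h2ae (2.55 against 1.36 CPM) were low in both.

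Hist1h2bc gave the most UMIs of any member in these cells, with 339 CPM in hormone-sensing, against 36.6 CPM in other mitotic-low WT cells (9.26-fold; log2 3.21, 3.14 to 3.28). Hist3h2ba was 12.2-fold higher (2.85 against 0.233 CPM), Hist1h2be 5.52-fold (7.49 against 1.36 CPM) and Hist2h2be 13.8-fold (1.87 against 0.136 CPM). Of the H3 genes, Hist2h3c2 had the highest ratio of all members, 23.9-fold (3.71 against 0.155 CPM; log2 4.58, 3.54 to 5.83). Its neighbour Hist2h3c1 was 11.8-fold higher (7.57 against 0.640 CPM) and Hist1h3d 8.26-fold (6.89 against 0.834 CPM). Hist1h4i was 8.57-fold higher, at 87.4 CPM in hormone-sensing and 10.2 CPM in other cells, and Hist2h4 12.9-fold higher (17.0 against 1.32 CPM). Hist1h4h was 2.84-fold and Hist1h4d 1.96-fold higher. The 4 members within 1.5-fold were Hist1h1b, Hist1h3e (32 and 45 UMIs), Hist4h4 (46 and 75 UMIs) and Hist1h3a (9 and 21 UMIs).

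The contrast was also present in C3-TAg cells outside the mitotic range. Hist1h2bc stood at 169 CPM in hormone-sensing mitotic-low, against 43.1 CPM in other mitotic-low C3-TAg cells. Hist1h1c stood at 152 against 68.3 CPM and Hist1h4i at 57.7 against 11.1 CPM. Hist1h1b ran the other way, at 5.58 CPM in hormone-sensing mitotic-low and 23.7 CPM in other mitotic-low cells. The C3-TAg hormone-sensing cells in the mitotic range held 453 CPM of Hist1h1b, against 353 CPM in other mitotic-high C3-TAg cells, and 77.8 CPM of Hist1h2bc, against 45.8 CPM.

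**Figure D4:**
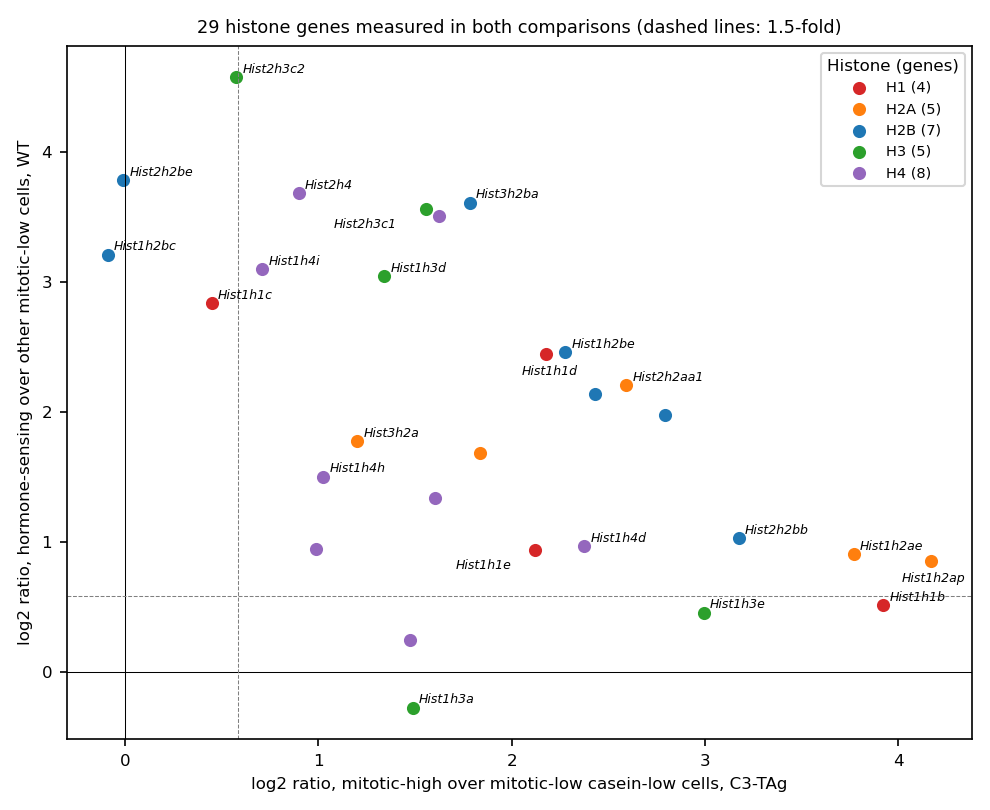
Each point is 1 of the 29 histone genes measured in both comparisons (1 library each). The horizontal axis is the log2 ratio of mitotic-high over mitotic-low casein-low C3-TAg cells and the vertical axis that of hormone-sensing over other mitotic-low WT cells, with dashed lines at 1.5-fold. Hist1h2bc and Hist2h2be sit at the upper left, with horizontal values of -0.09 and -0.01, and Hist1h1b, Hist1h2ap and Hist1h2ae at the lower right.

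Set against each other, the comparisons of mitotic state and of hormone-sensing identity use different libraries and share no cells. Mitotic state was read in the casein-low range. Of all genes measured, 11.2% were higher in the mitotic comparison by itself and 37.6% in the WT comparison by itself. The joint share over all genes was not computed. Of the 29 members measured in both comparisons, 21 were higher in both. Another 4 were higher with mitotic state and within 1.5-fold between WT classes. The other 4 were higher in hormone-sensing cells and within 1.5-fold of mitotic state. The first group of 4 was Hist1h1b, Hist1h3e, Hist1h3a and Hist4h4. The second was Hist1h1c, Hist1h2bc, Hist2h2be and Hist2h3c2. In the casein-high range Hist1h1c (1.58-fold) and Hist2h3c2 (1.55-fold) passed the limit, Hist1h2bc and Hist1h4i (ratios of 1.09 and 1.48) did not, and Hist2h2be had too few UMIs. Of the second group, Hist1h1c, Hist1h2bc and Hist2h2be are on a list of 4 mouse orthologs of human genes known to give polyadenylated histone transcripts, and the other is Hist1h2ac. All 4 were higher in WT hormone-sensing cells, as were 25 of the 29 members measured and 37.6% of all genes. Their median log2 ratio was 3.03, against 1.98 over the 29 members and 0.28 over all genes measured. In casein-low mitotic-high C3-TAg cells 1 of the 4 was higher, against 48 of 52 members and 11.2% of all genes. The list holds only 4 genes and was chosen with earlier results of these data known. Its overlap with the second group is therefore a description only, and the part of poly(A) ends was not tested.

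Read by annotated transcript end, the members that ran over 100 bases past the stem-loop had more counts. There were 22 such members with a median of 478.5 UMIs over both libraries. The 22 that ended within 100 bases of it had a median of 77.5 UMIs, and the 23 without it in an annotated transcript had 121. Some members measured in casein-low mitotic-high over mitotic-low cells had 20 UMIs in the mitotic-low cells by themselves. These were 14 of 21 with the long end, 4 of 15 with the short end and 4 of 16 without a stem-loop in an annotated transcript. The ratios of the short-ended members therefore rest mostly on members that passed the count limit only with the mitotic-high cells added, and no ratio is set between the kinds of end. Hist1h1b and Hist1h2bc, which lie far apart in the plot of both ratios, are both in the group without a stem-loop in an annotated transcript. Some annotated transcripts of this group are short, such as 381 bases for Hist2h2bb and 393 for Hist1h2an. A missing match is a trait of the annotation and does not show that the gene lacks a stem-loop.

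Between genotypes, C3-TAg hormone-sensing cells held less transcript of several members that were high in WT hormone-sensing cells, and near-equal amounts of others. Hist1h2bc stood at 154 CPM in C3-TAg, against 339 CPM in WT (2.20-fold lower; log2 -1.13, -1.20 to -1.07). Hist1h1c stood at 148 against 321 CPM (2.17-fold lower; log2 -1.12, -1.18 to -1.05). Without the cells in the mitotic range, Hist1h2bc was at 169 CPM in C3-TAg and 339 CPM in WT, and Hist1h1c at 152 CPM in C3-TAg and 321 CPM in WT. These are 2.01-fold and 2.11-fold lower. When the receptor sum was taken without Areg, the class had 1088 C3-TAg and 2373 WT cells. Hist1h2bc and Hist1h1c were then 1.84-fold and 2.02-fold lower. Of 26 members measured that way, 3 were higher and 9 lower, against 11.8% and 9.79% of all genes.

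In the whole class, 4 of 7 measured H4 genes were lower and 1 higher. Hist1h4h was 2.29-fold lower in C3-TAg hormone-sensing cells (6.25 against 14.3 CPM), Hist2h4 1.98-fold lower (8.57 against 17.0 CPM) and Hist1h4i 1.70-fold lower (51.6 against 87.4 CPM). Hist1h4j, with 24 UMIs in C3-TAg and 65 in WT, was the other lower one. Hist1h4d (9.77 against 11.5 CPM) and Hist4h4 (24 and 46 UMIs) were within 1.5-fold with intervals that include an equal level, and Hist1h4a (21 and 17 UMIs) had a ratio of 1.96 with an interval that does so too. The H3 genes Hist2h3c1 (4.35 against 7.57 CPM) and Hist1h3d (4.35 against 6.89 CPM) and the H2B gene Hist1h2be (4.65 against 7.49 CPM) were also lower. Hist3h2a was near equal, at 19.6 CPM in C3-TAg and 17.6 CPM in WT, and likewise Hist3h2ba, at 2.80 against 2.85 CPM. Hist2h3c2 (2.74 against 3.71 CPM) and Hist2h2be (1.55 against 1.87 CPM), both high in WT hormone-sensing over other cells, were also within 1.5-fold here, with intervals that include an equal level. Some of these values depended on the mitotic-range cells. Without them Hist1h4d was 1.57-fold lower (log2 -0.65, -0.98 to -0.32) and Hist2h3c2 1.64-fold lower (log2 -0.71, -1.34 to -0.13). Hist4h4 was 1.74-fold lower (log2 -0.80, -1.78 to 0.09), and Hist1h4a had a ratio of 0.887. Hist3h2a, Hist3h2ba and Hist2h2be stayed within 1.5-fold. With the receptor sum taken without Areg, Hist1h4i and Hist1h3d were within 1.5-fold, at 1.39-fold and 1.29-fold lower. Hist1h4h, Hist2h4, Hist1h4j, Hist2h3c1 and Hist1h2be stayed lower by more than 1.5-fold.

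The 9 hormone-sensing markers summed to 6479 CPM in C3-TAg, against 8610 CPM in WT hormone-sensing cells. Of these, 8 were lower in C3-TAg by any amount, from Ly6a (290 against 992 CPM), Cited1 (682 against 1466 CPM), Esr1 (46.7 against 88.7 CPM) and Prlr (1516 against 2500 CPM) to Pgr (105 against 119 CPM), Foxa1 (96.3 against 109 CPM) and Prom1 (131 against 140 CPM), with Tnfsf11 under 4 CPM in both. Areg stood higher, at 3612 against 3192 CPM. Without the mitotic-range cells the sum was 7446 CPM in C3-TAg, against 8611 CPM in WT, and Foxa1, Prom1 and Pgr were at or above their WT level. The part of these markers in the histone values was not tested.

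Members that were higher with the mitotic sum went both ways in C3-TAg hormone-sensing cells. Hist1h4h, Hist2h4, Hist1h4i, Hist1h2be, Hist1h3d and Hist2h3c1 were lower, as given above. Hist1h1b, Hist1h2ap and Hist1h2ae were higher in the whole class, and much less so without its 235 mitotic-range cells. Hist1h1b stood at 75.9 CPM in C3-TAg, against 2.02 CPM in WT, with the whole class, and at 5.58 against 1.35 CPM without those cells. Hist1h2ap stood at 37.9 against 1.65 CPM with them and 3.04 against 1.42 CPM without them. Hist1h2ae stood at 27.6 against 2.55 CPM with them and 4.52 against 2.36 CPM without them. The highest ratios in the whole class were those of Hist1h2an (32 UMIs in C3-TAg, 1 in WT), Hist1h3c (92 and 0 UMIs) and Hist1h1a (138 and 5 UMIs). With WT set to 3 counts the ratio of Hist1h3c was 48.8, and its exact interval starts at log2 5.28.

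Counted over members, 15 of 35 were higher and 10 lower in C3-TAg hormone-sensing cells, against 22.6% higher and 9.19% lower of all genes measured. Of these members, 11 reached 20 UMIs only with the C3-TAg cells added. Among the other 24, with 20 UMIs in WT by themselves, 5 were higher and 10 lower, against 18.2% and 9.57% of genes under the same limit. Without the mitotic-range cells, 3 of 27 were higher, namely Hist1h1b, Hist1h2ap and Hist1h2ae, and 14 were lower, against 15.6% higher and 9.04% lower of all genes. The summed level was 1.36-fold lower in C3-TAg with the whole class, and the gap was wider without those cells, at 505 CPM in C3-TAg against 898 CPM in WT. The H1 sum was 196 CPM in C3-TAg, against 361 CPM in WT, and the H2B sum 180 against 355 CPM, both without those cells. TMM scaling moves the log2 ratios of the whole class by 0.15 and left the counts at 15 and 10.

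In casein-high mitotic-low cells the genotypes differed the other way. Of 29 members, 20 were higher in C3-TAg and 2 lower, against 26.9% higher and 10.8% lower of all genes measured, and the summed level was 246 CPM in C3-TAg, against 132 CPM in WT. Among the 21 with 20 UMIs in WT by themselves, 12 were higher and 2 lower, with 24.4% of genes higher under the same limit. Hist1h1b was 18.3-fold higher (23.5 against 1.28 CPM), Hist1h2ap 16.2-fold (12.8 against 0.790 CPM) and Hist1h2ae 6.72-fold (8.47 against 1.26 CPM). Hist1h3c had 67 UMIs in C3-TAg and 1 in WT (log2 7.26, 4.74 to 12.59). Among the abundant members, Hist1h1e was 2.94-fold higher (28.3 against 9.63 CPM) and Hist1h1d 2.29-fold (7.44 against 3.25 CPM).

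Hist1h1c was 1.52-fold higher in these C3-TAg cells (66.6 against 43.7 CPM), a log2 ratio of 0.61 that falls under 1.5-fold once the TMM shift of 0.27 is taken off. Hist1h2bc was level, at 37.6 CPM in C3-TAg and 35.2 CPM in WT (log2 0.09, -0.03 to 0.22), and Hist1h4i, at 11.7 against 9.61 CPM, had a log2 ratio of 0.28, about that shift. The 2 lower members were H4 genes, Hist2h4 (13 UMIs in C3-TAg, 53 in WT) and Hist4h4 (20 and 69 UMIs). The counting intervals of both include an equal level. Hist1h4h had the third lowest ratio (3.57 against 5.02 CPM). The 6 basal markers summed to 431 CPM in C3-TAg and 30.8 CPM in WT cells of this class, with Krt14 at 428 against 26.1 CPM, and Csn2 stood at 14486 against 24359 CPM, and their part was not tested.

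Casein-low mitotic-low cells showed a smaller difference. There 11 of 24 members were higher in C3-TAg and 4 lower, against 32.2% higher and 13.1% lower of all genes measured, and 9 higher and 6 lower with TMM scaling. Most of these members, 16 of 24, reached 20 UMIs only with the C3-TAg cells added. Among the 8 with 20 UMIs in WT by themselves, 2 were higher (Hist1h1d and Hist1h1e) and 1 lower (Hist1h4i), against 25.7% and 13.4% of genes under the same limit. Hist1h1b was 8.75-fold higher (24.1 against 2.75 CPM), Hist1h2ap 5.11-fold (10.8 against 2.12 CPM) and Hist1h1e 2.34-fold (39.6 against 16.9 CPM). Hist1h1a (44 UMIs in C3-TAg, 1 in WT) and Hist2h3c2 (24 and 1 UMIs) had the other extreme ratios. Hist1h2bc was again level, with 51.0 CPM in C3-TAg and a ratio of 1.02 to WT. The 4 lower members were Hist1h4i (10.1 against 16.1 CPM), Hist2h4 (1.65 against 3.18 CPM), Hist1h2be (1.94 against 2.97 CPM) and Hist1h2ac (14 and 8 UMIs, a ratio of 0.592). The counting interval lay below 1 for Hist1h4i and reached past 1 for the other 3. Summed immune markers stood at 9.61 CPM in C3-TAg and 41.3 CPM in WT cells of this class. The 6 basal markers summed to 445 CPM in C3-TAg, against 212 CPM in WT. Krt14 stood at 434 against 148 CPM, whereas the others were lower in C3-TAg, Krt5 at 0.789 against 45.8 CPM, Trp63 at 0.932 against 4.45 CPM, Myh11 at 1.51 against 1.91 CPM and Oxtr at 0 against 1.06 CPM, with Acta2 at 8.17 CPM in C3-TAg. The part of these markers was not tested.

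The excess of Hist1h1b was smaller but present in cells furthest from the mitotic range. Only cells that had no UMI of the mitotic genes were kept in either library, 800 C3-TAg and 3601 WT casein-high cells. In these, 11 of 22 members were higher and 3 lower, against 21.4% and 11.4% of all genes measured there. Hist1h1b had a log2 ratio of 2.80. Of the 22, 3 passed the count limit only with the C3-TAg cells added. In 769 C3-TAg and 552 WT casein-low cells of this kind, the split of members was less one-sided. There 5 of 13 members were higher and 3 lower, against 29.5% and 11.1% of all genes measured there. The higher ones were Hist1h1b, Hist1h2ae, Hist1h1e, Hist1h1d and Hist1h1c, and Hist1h1b had a log2 ratio of 2.37. Of the 13, 6 passed the count limit only with the C3-TAg cells added, which favours a higher ratio. The 4 WT mitotic-high cells outside the hormone-sensing class had 26 UMIs of Hist1h1b in all, or 364 CPM (238 to 534), and 3 of Hist1h2bc. The 2 mitotic-high C3-TAg classes held 322 and 366 CPM of Hist1h1b, and 4 cells allow no comparison of genotypes.

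In single cells, after thinning every cell to 2000 UMIs, which left out 0 to 16 shallower cells per class, at least 1 histone UMI was found in 67.9% (63.9 to 71.7) of casein-high and 60.3% (57.8 to 62.7) of casein-low mitotic-high C3-TAg cells. Hormone-sensing cells had one in 52.5% (50.3 to 54.7) in C3-TAg and 72.4% (70.7 to 74.1) in WT. In casein-high mitotic-low cells the share was 31.6% (29.5 to 33.8) in C3-TAg and 19.4% (18.1 to 20.7) in WT. No cell type lacks histones, so the WT casein-high mitotic-low cells serve here as a low reference and not as the lowest class. At 5000 UMIs their share was 40.5% (38.9 to 42.1), against 37.3% (33.0 to 41.9) in WT casein-low mitotic-low cells. Unthinned, the share in WT hormone-sensing cells was 96.3%, in WT casein-high mitotic-low cells 63.3% and in WT casein-low mitotic-low cells 47.0%.

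Histone signal was uneven across mitotic-high cells. Their histone signal ran from a lower quartile of 1.16 to an upper quartile of 21.4 UMIs per 10000 in the casein-low range, with a median of 5.59. The top 10% of those cells held 35.5% of their histone UMIs. WT hormone-sensing cells were more even, with quartiles of 3.89 and 12.7, a median of 7.21 and 27.3% of the UMIs in the top 10%. Hist1h1b was seen in 33.2% (30.9 to 35.6) of thinned casein-low mitotic-high C3-TAg cells and in 2.78% (2.06 to 3.66) of casein-low mitotic-low ones. Hist1h2bc was seen in 5.49% and 6.53% of the same cells, and in 23.8% of C3-TAg and 45.8% of WT hormone-sensing cells.

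Genes that act with the members were also followed. Of 12 measured genes of histone mRNA processing, 9 were higher in C3-TAg casein-high mitotic-low cells than in WT, against 26.9% of all genes, and 2 of 12 in casein-low mitotic-high over mitotic-low cells, against 11.2%. Slbp, which encodes the stem-loop binding protein, stood at 116 CPM in C3-TAg, against 47.3 CPM in WT casein-high mitotic-low cells, and at 394 CPM in casein-low mitotic-high, against 222 CPM in mitotic-low C3-TAg cells. Of 14 histone chaperone genes 9 were higher in C3-TAg casein-high mitotic-low cells than in WT, against the same 26.9%, among them Nasp, a chaperone of H1 and H3-H4 (193 against 76.8 CPM). The replication-independent histone genes, which keep poly(A) tails, gave a mixed list. H2afz, the gene of H2A.Z, was higher in C3-TAg hormone-sensing cells (794 against 235 CPM in WT), whereas the H3.3 gene H3f3b stood at 3537 against 3942 CPM. In WT hormone-sensing over other mitotic-low cells 4 of 11 genes of this list were higher, a share near the 37.6% of all genes. H2afz, at 235 against 416 CPM, was the only 1 of the 11 to be lower, where 21.0% of all genes were.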

How the data were processed

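The values used are raw UMI counts for each gene in each barcode, as deposited. Cell Ranger 3.1.0 and the build mm10 are named in the submitters' processing notes. The deposited barcode and gene lists carry no values (unit other than a measurement). How the authors treated multi-mapping and antisense reads was not stated. Barcodes with under 500 genes, under 1000 UMIs or over 10% mitochondrially encoded UMIs were left out, which kept 8458 of 9575 C3-TAg and 7406 of 8993 WT barcodes. Scrublet doublets were removed, 630 in C3-TAg (7.45%) and 360 in WT (4.86%). The libraries held 91932121 UMIs in C3-TAg and 91133082 in WT.

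Counts were summed per library and class and divided by the class total (CPM), with exact Poisson intervals for levels, exact conditional Poisson intervals for ratios and Clopper-Pearson intervals for shares, all at 95%. A group without a UMI was set to 3 counts. Cells are not replicates, so there is no test. Scrublet ran in scanpy 1.11.5 and TMM factors came from edgeR 4.0.16 (R 4.3.3); sums and intervals used Python 3.11.15 with pandas 2.3.3, scipy 1.17.1 and numpy 2.4.6. The ratio step was tested on simulated counts.

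Members, classes, thresholds and gene lists were chosen with earlier results of these data known. Named are the 4 members with the most UMIs in each histone class, the 3 highest and 3 lowest ratios of each comparison, and up to 4 genes per comparison list. Alternatives covered the thresholds, doublets, deep and non-epithelial cells, scaling, thinning, cell weights and count limits. Leaving out mitotic-range or mitotic-gene-positive cells, dropping Areg and requiring counts in the second group of each comparison alone were added after seeing the data.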

Additional observations from a re-analysis of the deposited data

Results flagged for a closer look

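For 5 members the ratio of C3-TAg over WT pointed in opposite directions in hormone-sensing cells and in casein-high mitotic-low cells. They were chosen for being called lower in the first class and higher in the second. Of all genes measured, 9.19% were lower in the first and 26.9% higher in the second. The share of all genes with both calls was not computed. The difference between the classes was not tested, since each genotype is 1 library. The log2 ratio of Hist1h1c was -1.12 in hormone-sensing and 0.61 in casein-high mitotic-low cells. That of Hist1h2be was -0.69 and 0.94 in the same order, and that of Hist1h3d -0.66 and 1.57. Hist1h2br, with few UMIs, had -0.72 and 1.14, and Hist1h4j -0.77 and 2.59. The hormone-sensing interval of Hist1h2br (-1.52 to 0.03) includes an equal level. Hist1h1c is an abundant linker histone gene, Hist1h2be and Hist1h2br are H2B genes, and Hist1h3d and Hist1h4j are H3 and H4 genes.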

How the results depend on the processing

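No paired analysis was possible because each genotype is 1 library and carries no replicate number. Counts of members called higher moved with several settings. At a mitotic limit of 10 per 10000 they were 35 for C3-TAg over WT casein-high and 21 for casein-low mitotic-low cells, 4 for casein-low over casein-high mitotic-high cells and 29 for S-high over S-low cells. At 2 per 10000 the last 3 were 5, 19 and 5. Without any mitotic UMI they were 11 and 5 for the genotypes and 1 for S-high cells. For hormone-sensing cells the count of 15 became 7 at a limit of 10, 23 with classes assigned after thinning, 3 without mitotic-range cells and 3 without Areg. Classes after thinning gave 20 for casein-low over casein-high, and an S limit of 10 gave 7. Counting from 5 UMIs gave 28 in hormone-sensing, 34 in casein-high, 19 in casein-low and 19 in S-high cells; from 50 UMIs these were 8, 5 (casein-low) and 4 (S-high), with 24 for mitotic-high casein-high cells. At 2-fold, casein-low over casein-high had 5 and S-high 5. With 20 UMIs required in the second group alone, the counts were 5 in hormone-sensing, 12 in casein-high and 2 in casein-low cells between genotypes, 21 and 19 for mitotic-high cells, 0 for casein-low over casein-high and 4 for S-high. The count for WT hormone-sensing cells ranged from 17 to 31 and moved past 1.5 times under no alternative run.

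Of single members, 5 values changed sign: Hist1h3f in S-high cells (log2 0.58 at a mitotic limit of 10 and 0.71 after thinning), Hist1h2an there (-0.42 at an S limit of 10), Hist1h2ac in casein-low cells (1.25 after thinning) and Hist2h3c2 in casein-high mitotic-high cells (-0.067 after thinning). The cause was not tested. Shares of cells with a histone UMI depended on depth: at 5000 UMIs and unthinned they were 74.0% and 83.6% in C3-TAg and 91.2% and 96.3% in WT hormone-sensing cells, 53.0% and 71.6% in C3-TAg and 40.5% and 63.3% in WT casein-high mitotic-low cells, and 51.9% and 60.0% in C3-TAg and 37.3% and 47.0% in WT casein-low mitotic-low cells. In C3-TAg mitotic-high cells they were 81.0% and 89.9% (casein-high) and 74.7% and 81.8% (casein-low). Priming on poly(A), paralog counting and 1 library per genotype limit all values.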
